A study of Mus musculus with 21 samples.

Results

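Arhgap26, Lrmda, Prkce, Tshz2, Tenm4, Gse1 and Spon1 are 7 long mouse genes, of 21627 protein-coding genes in the gene table used, that hold many binding sites of estrogen receptor alpha (ERα) in estradiol-treated vWAT. They were selected because many of their vWAT estradiol peaks were missing from the vehicle list, so their vWAT counts describe the selection and carry no test. The ERα chromatin immunoprecipitation and sequencing (ChIP-seq) data came from CD-1 mice aged 10 weeks, given either estradiol or vehicle, with tissue labels vWAT, scWAT, BAT and Liver. There were 4 libraries of vWAT with estradiol and 2 of vWAT with vehicle, and, all with estradiol, 3 of scWAT, 1 of BAT and 2 of Liver. All groups share strain and age. The labels name neither sex, dose, route nor duration of treatment, nor do they tie libraries to animals. Each group has a single peak list, so no value per library could be compared and no comparison below has a replicate check.

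ERα is a ligand-activated transcription factor of the nuclear receptor family. It binds DNA as a dimer at estrogen response elements, which are inverted repeats of a short core sequence, and it also reaches chromatin through other bound factors. Much of its binding lies in introns and between genes, at enhancers that can be far from the start site of any gene.

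A peak was assigned to a gene when its summit, the position of highest signal, lay inside the gene span or within 25 kb of either end. A vWAT estradiol peak was called estradiol-only when it overlapped no vehicle peak by 1 bp or more. Coordinates are on mm10 and count from 1. Enrichment is the authors' deposited ratio of each peak over a background that is not stated, and it was used to rank peaks within a list alone. The gene table gives no exons, so no summit was placed in an exon, intron or untranslated region. The lists used held 20715 peaks (vWAT estradiol), 7400 (vWAT vehicle), 17971 (scWAT), 5193 (BAT) and 21411 (Liver), and sequencing depth is unknown. The tissue labels could not be checked by expression here. White fat markers Adipoq, Lep, Plin1 and Fabp4 had 2 to 4 vWAT estradiol peaks each. In scWAT these 4 had 2, 1, 0 and 1 peaks, and in Liver 2, 0, 0 and 1. The hepatocyte markers Alb, Apoa1 and Ttr had 4, 3 and 0 Liver peaks. The brown fat markers Ucp1 and Cidea had 0 BAT peaks while Ppargc1a had 2. The same 3 brown fat markers had 2, 4 and 2 vWAT estradiol peaks.

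At Tshz2 and Tenm4 a vWAT estradiol summit lay within 1 kb of an annotated start site. No other of the 7 genes had a vWAT estradiol summit within 1 kb of an end of its span. The 250 bases before each of these start sites are shown because the nearest peaks begin just past them. They are from RefSeq on GRCm38.p6, plus strand, chr2:169632259-169632508 for Tshz2 and chr7:96170994-96171243 for Tenm4, with any copy of the core sequence AGGTCA set in capitals on either strand.
Tshz2: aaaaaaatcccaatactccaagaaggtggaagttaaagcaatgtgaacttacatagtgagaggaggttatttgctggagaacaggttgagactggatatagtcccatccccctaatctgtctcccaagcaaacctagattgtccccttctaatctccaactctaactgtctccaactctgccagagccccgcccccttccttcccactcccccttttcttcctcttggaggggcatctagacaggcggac
Tenm4: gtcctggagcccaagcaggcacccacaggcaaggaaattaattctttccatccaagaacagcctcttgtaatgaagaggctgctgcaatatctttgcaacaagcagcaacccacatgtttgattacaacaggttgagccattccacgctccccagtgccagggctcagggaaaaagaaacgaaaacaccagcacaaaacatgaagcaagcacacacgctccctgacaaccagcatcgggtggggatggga
Neither stretch holds AGGTCA or the full element GGTCANNNTGACC. Of all 21044 promoter stretches of 250 bases in the table, 12.8% hold the core sequence and 0.0475% the full element. Promoters of 4 of the 7 genes were matched (Tshz2, Tenm4, Gse1 and Lrmda), and among their start sites 1 of Gse1 had a single copy of it, at base 167 of the stretch before it. These letters describe the windows only. The Tshz2 summit lay 331 bp past the start site, had an enrichment of 5.59 and was also held with vehicle and in BAT. The Tenm4 summit lay 483 bp past the start site, had an enrichment of 3.42, and was estradiol-only but found in scWAT. The nearest summits to the 3 start sites of Gse1 lay 4039, 2953 and 1401 bp past them, and the nearest to that of Lrmda lay upstream, at −13160 bp.

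The 7 genes together held 164 vWAT estradiol peaks against 27 vehicle peaks. Their scWAT, BAT and Liver counts were 83, 25 and 49. The number of vWAT estradiol peaks was 35 at Arhgap26, 28 at Lrmda, 23 at Prkce, 22 at Tshz2, 21 at Gse1, 19 at Tenm4 and 16 at Spon1. Of the 164 peaks, 148 were estradiol-only, or 90.2% (95% Wilson interval 84.7 to 93.9), beside 77.3% of the whole list. Because the genes were selected on such peaks nothing is read from that difference, and the share at all other protein-coding genes of at least 200 kb was 88.1% of 2721 peaks. The vehicle list is also shorter than the estradiol list. Every list was therefore also held to its 5193 peaks of highest −log10 p-value. Then 78.6% of the vWAT estradiol peaks at the 7 genes and 56.3% of those in the whole list were absent from vehicle. Of the 148 estradiol-only peaks, 3 had a vehicle summit within 1 kb, 1 each at Lrmda, Prkce and Tshz2, at distances down to 411 bp (2.03%, beside 2.18% of estradiol-only peaks in the whole list).

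**Figure D1:**
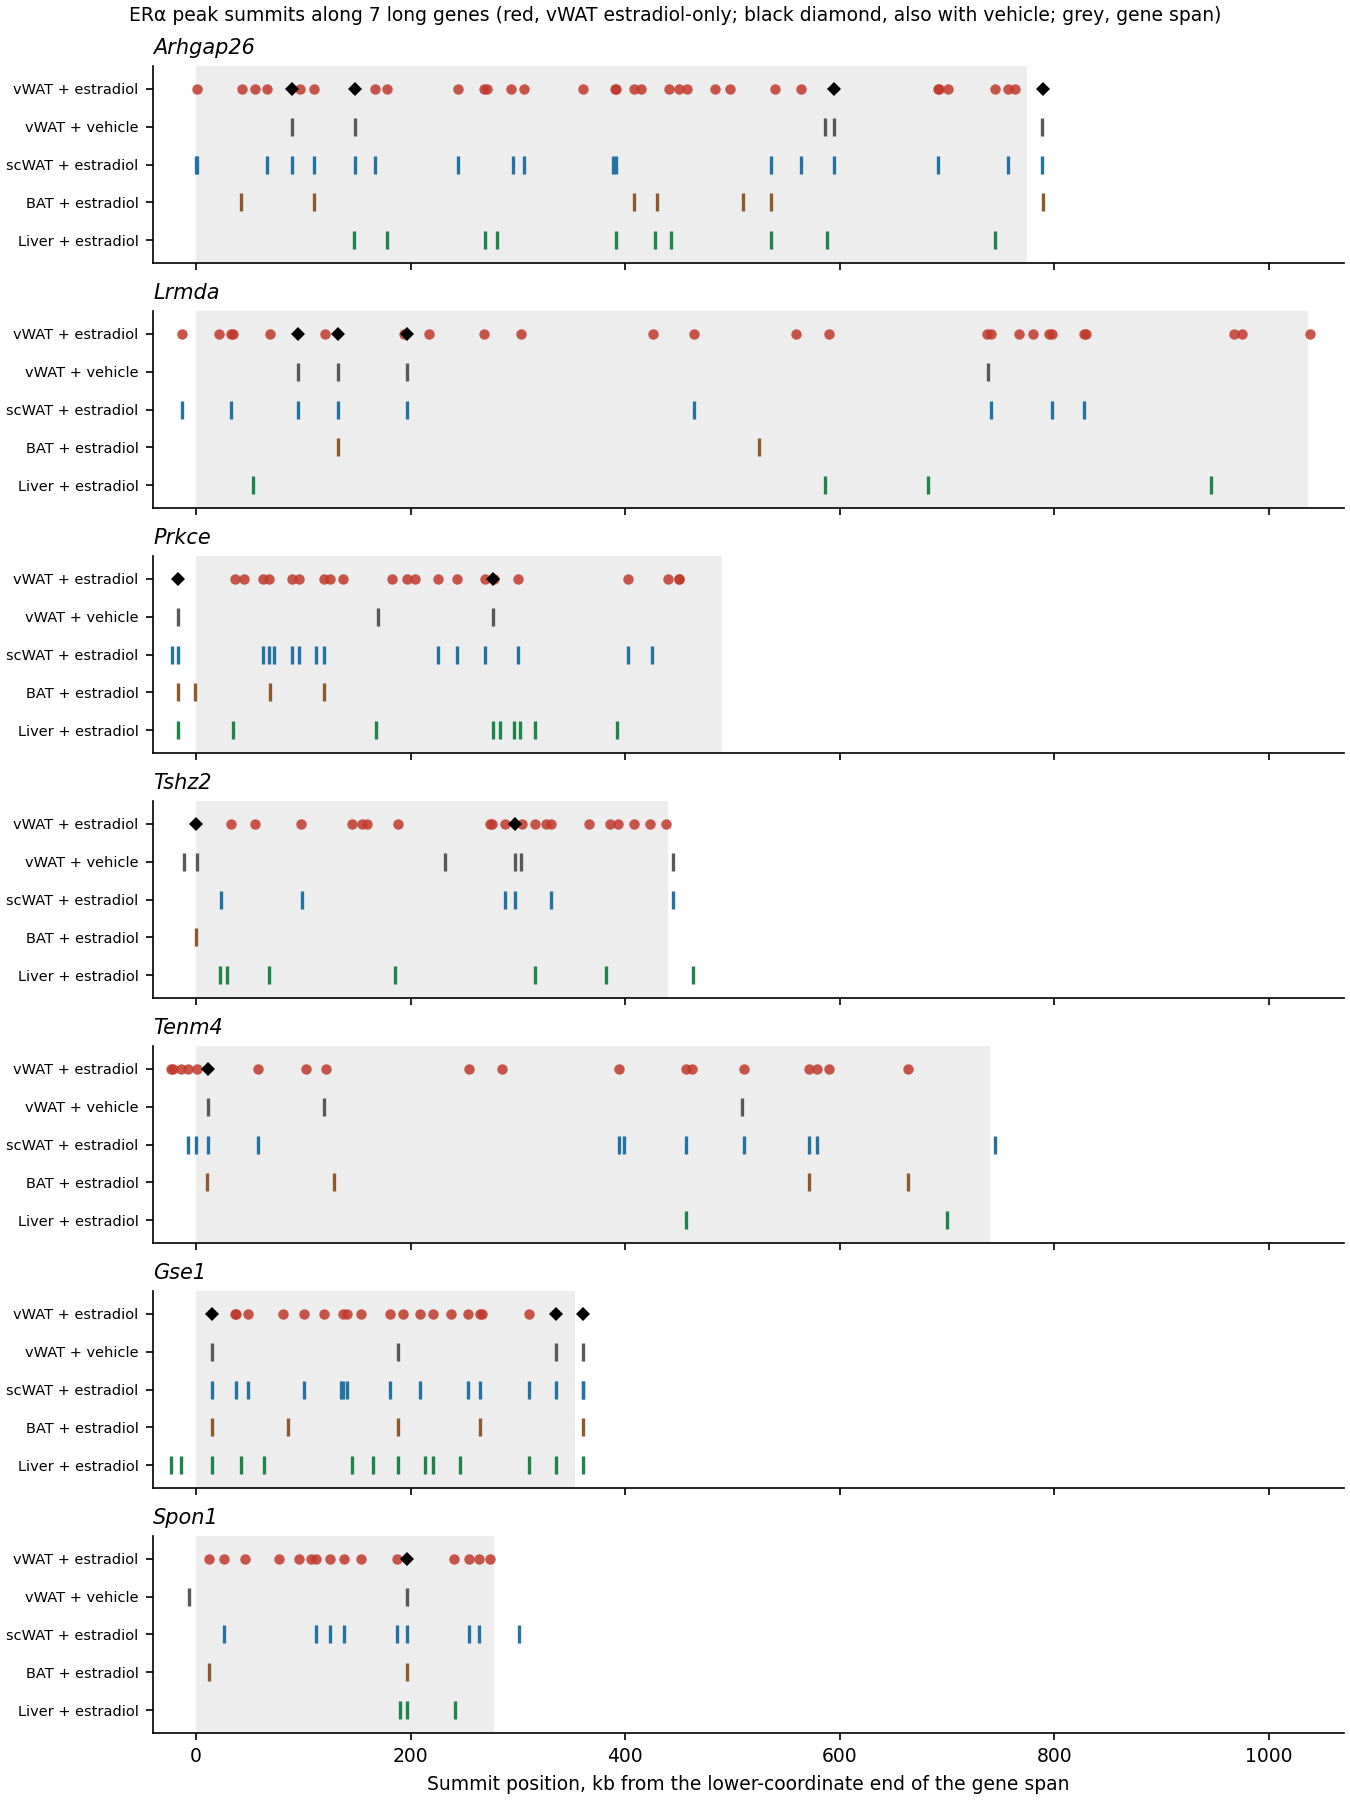
Summits of ERα peaks along the 7 genes in the 5 peak lists. The horizontal axis is the distance in kb from the lower-coordinate end of the gene span (grey); red circles are vWAT estradiol-only peaks, black diamonds vWAT estradiol peaks also held with vehicle, and ticks the summits of the other lists. Arhgap26 carries 31 red circles and Spon1 15, and most black diamonds stand above a scWAT tick.

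Among the 989 protein-coding genes of at least 200 kb, the median number of estradiol-only peaks was 2 and 34.1% had none. Only 10 such genes had 15 or more, namely the 7 genes and Trabd2b, Adam12 and Slit3. By count, Arhgap26 ranked 1, Lrmda 2, Prkce 3 and Tshz2 4, and Spon1 ranked 10. By density the order changed. Gse1 and Spon1 had 4.47 and 4.58 estradiol-only peaks per 100 kb of span plus flanks and ranked 7 and 5, whereas Lrmda and Tenm4, with 2.30 and 2.28 per 100 kb, ranked 53 and 55. The other 3 genes lay between, at 3.76 (Arhgap26), 3.89 (Prkce) and 4.08 (Tshz2) per 100 kb.

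Each gene was then set beside the protein-coding genes of like span, at most 25% longer or 20% shorter. A gene was called denser when its peaks per 100 kb exceeded those of more than 95% of such genes. For vWAT estradiol peaks all 7 genes were denser, where 4.73% of the 634 genes at least as long as Spon1 were, and for estradiol-only peaks again all 7, where 4.89% were. The selection used these counts. With lists of equal length Gse1, then left with 2 estradiol-only peaks, was no longer denser in them, while the other 6 genes were. The genes of like span had a median of 0.11 to 0.60 vWAT estradiol peaks per 100 kb, and the 7 genes had 2.41 to 5.21. The gene nearest in span to each held few peaks. Nav3, 774 kb long like Arhgap26 at 775 kb, had 6 vWAT estradiol peaks against 35. Kcnh7 had 0 against 23 at Prkce, Cacna2d1 had 2 against 22 at Tshz2, Alk 1 against 19 at Tenm4, Vwa8 5 against 21 at Gse1 and Erc1 2 against 16 at Spon1. Astn2 had 10 against 28 at Lrmda.

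The scWAT, BAT and Liver lists were not used in the selection, but their densities are not independent of it. At the 7 genes 67 of 83 scWAT, 15 of 25 BAT and 15 of 49 Liver peaks overlapped a vWAT estradiol peak. In scWAT 6 of the 7 genes were denser than 95% of genes of like span, where 4.89% of the 634 genes were. The exception was Tshz2, with 6 scWAT peaks and a density above 88.3% of genes of like span. With flanks of 50 kb Tshz2 was denser too, and with genes of 0.5 to 2 times the span Lrmda was not. In BAT 4 of 7 were denser (Arhgap26, Prkce, Tenm4 and Gse1), where 5.21% were. Without flanks Prkce was not denser, and with flanks of 50 kb Lrmda was. The BAT count fell to 1, Prkce, when peaks below 2 in −log10 q-value were dropped, which left 7 BAT peaks in the 7 genes. In Liver 2 of 7 were denser (Prkce and Gse1), where 4.42% were, but neither held under every alternative. Prkce was not denser when genes of 0.5 to 2 times the span were used, and Gse1 was not with lists of equal length. Arhgap26 became denser in Liver with lists of equal length and with the q-value limit, and Tshz2 with flanks of 50 kb. With vehicle 5 of 7 were denser, all but Tenm4 and Spon1, where 4.73% were. Prkce lost this call under the q-value limit, equal length, both other flanks and wider spans, and Spon1 gained it under the q-value limit and equal length. In Liver, Lrmda with 4 peaks and Tenm4 with 2 were below the median of genes of like span, with densities above 41.4% and 21.3% of them.

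**Figure D2:**
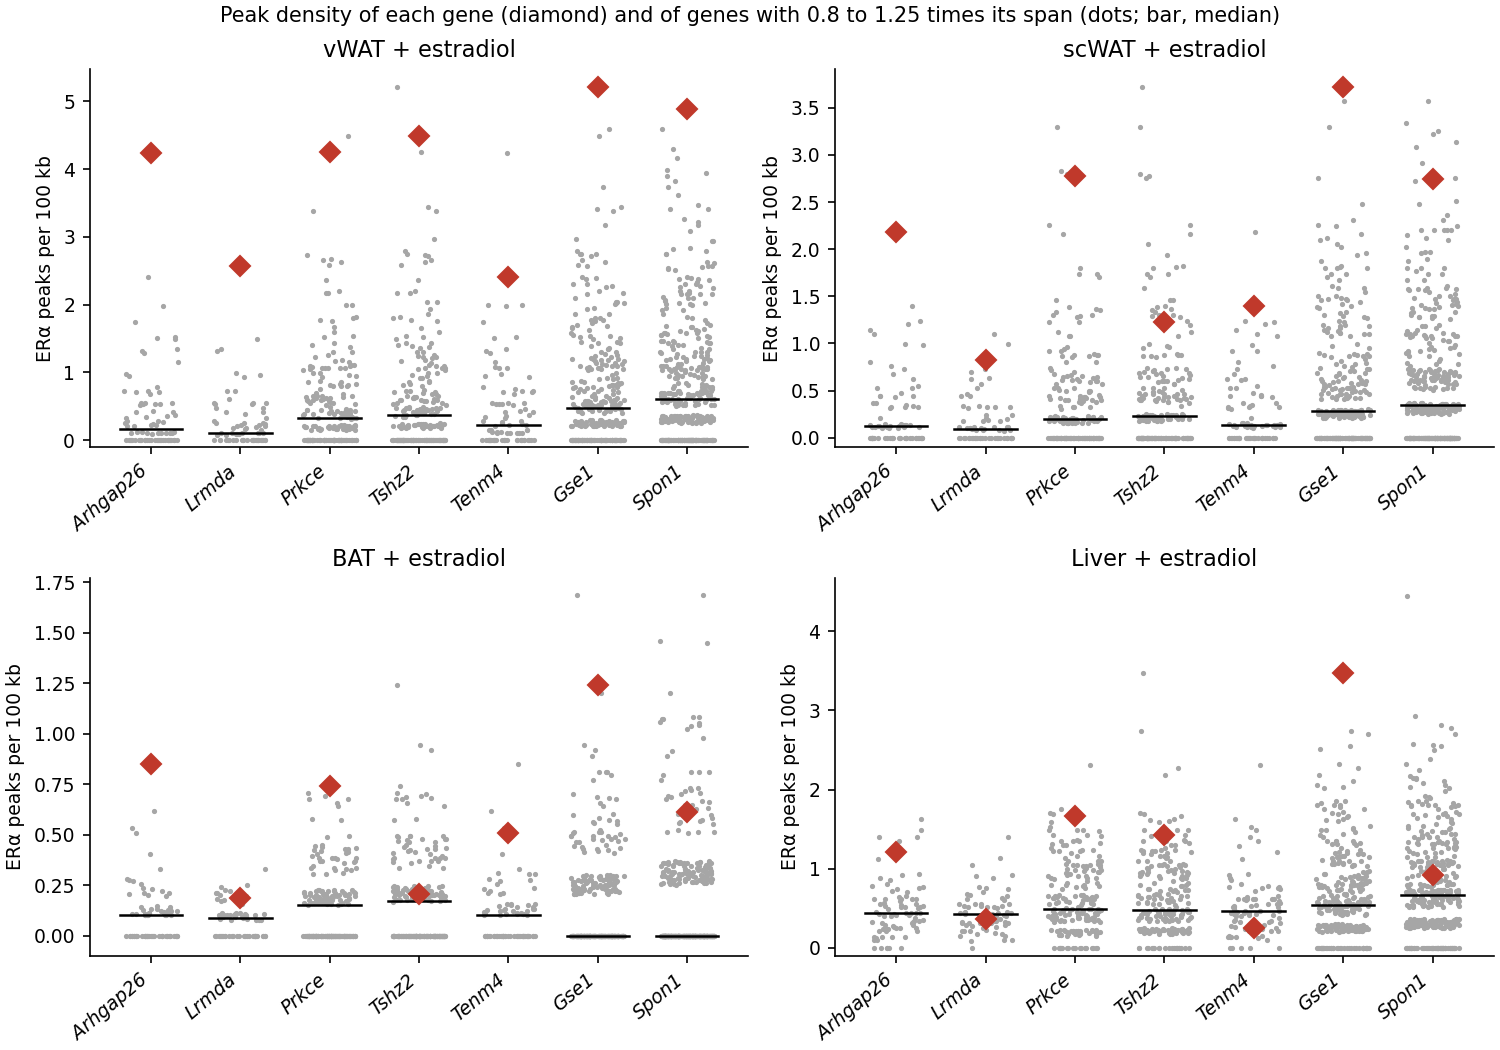
ERα peaks per 100 kb of span plus flanks, in 4 estradiol lists, for each of the 7 genes (red diamond) and for every protein-coding gene at most 25% longer or 20% shorter (grey dots; black bar, their median). The diamonds stand at or near the top in vWAT, where the genes were selected, and in scWAT except for Tshz2 at 1.22; in Liver the diamond of Gse1 is the highest at 3.47 and those of Lrmda and Tenm4 are below the bar.

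Individual vWAT estradiol peaks at the 7 genes were found in scWAT and Liver about as often as those at other long genes. In BAT their share was higher than at other long genes. An overlapping scWAT peak was present for 67 of 164 (40.9%, interval 33.6 to 48.5), beside 39.7% at other genes of at least 200 kb and 48.4% of the whole list. A BAT peak was present for 15 (9.15%, interval 5.62 to 14.5), beside 6.06% at other long genes and 11.1% of the whole list. A Liver peak was present for 16 (9.76%, interval 6.09 to 15.3), beside 10.4% at other long genes and 22.8% of the whole list. Each of the 3 intervals contains the share at other long genes, but this cannot show that the shares are equal. Of the 164 peaks, 85 were in none of these 3 tissues, and all 85 were estradiol-only. That share was 51.8% (interval 44.2 to 59.3), beside 56.1% at other long genes and 45.6% of the whole list.

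The 148 estradiol-only peaks and the 16 peaks also held with vehicle differed in how often they recurred. Of the estradiol-only peaks 53 were found in scWAT (35.8%), 7 in BAT (4.73%) and 9 in Liver (6.08%). Of the 16 vehicle-held peaks 14 were found in scWAT, 8 in BAT and 7 in Liver, and 0 were in none of these tissues. Among vehicle-held peaks, 10.9% in the whole list and 20.7% at other genes of at least 200 kb were in none of them. Over the whole list 38.7% of estradiol-only and 81.1% of vehicle-held peaks were found in scWAT, 3.86% and 35.9% in BAT, and 9.91% and 66.9% in Liver. Vehicle-held peaks were also stronger, with a median enrichment of 7.76 against 4.78 for the estradiol-only peaks of the 7 genes. Within the estradiol-only peaks, the share found in scWAT was 25%, 13.3%, 35.9% and 60.5% in 4 classes of rising enrichment (bounded by the quartiles of all estradiol-only peaks), with 36, 30, 39 and 43 peaks. The 2 weaker classes were thus found least often, and the strongest most often, as in the whole list (22.7% to 71.5%).

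**Figure D3:**
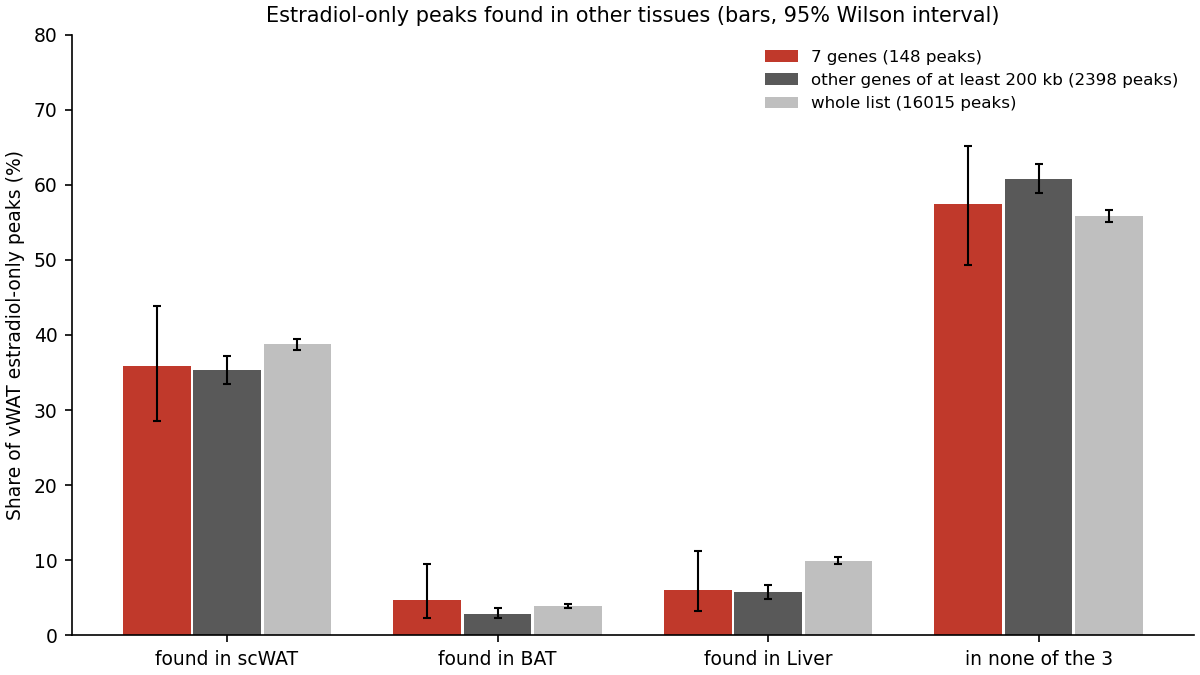
Share in percent of vWAT estradiol-only peaks found in scWAT, BAT, Liver or none of these, for the 7 genes (148 peaks), other genes of at least 200 kb (2398 peaks) and the whole list (16015 peaks). Bars are shares and error bars 95% Wilson intervals over peaks; the red and dark grey bars stand close, at 35.8% and 35.3% for scWAT.

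Read from the other side, most scWAT peaks at these genes coincided with a vWAT estradiol peak, at 67 of 83 (80.7%, beside 56.0% of the whole scWAT list). The Liver peaks mostly did not, at 15 of 49 (30.6%, beside 22.2%). At Lrmda all 9 scWAT peaks and 0 of 4 Liver peaks coincided with one. At Gse1, 13 of 15 scWAT peaks and 5 of 14 Liver peaks did. The chance of an overlap rises with how densely vWAT peaks lie in a region, and its part in these shares was not tested. That density is high at the selected genes because they were chosen for many estradiol-only vWAT peaks. Shares above those of the whole lists can therefore follow from the selection, and nothing is read from them.

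Over all peaks together, enrichment at the 7 genes was close to that of the whole list. The median over their 164 peaks was 4.84, the same to 2 decimals as over the whole list, and 4.72 at other long genes. Medians per gene ran from 4.59 (Arhgap26) to 5.45 (Tenm4). At 6 of the 7 genes the strongest vWAT estradiol peak was held with vehicle, and Tshz2 was the exception. Weak and strong peaks lay side by side in each gene, from 2.98 to 22.6 in all.

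**Figure D4:**
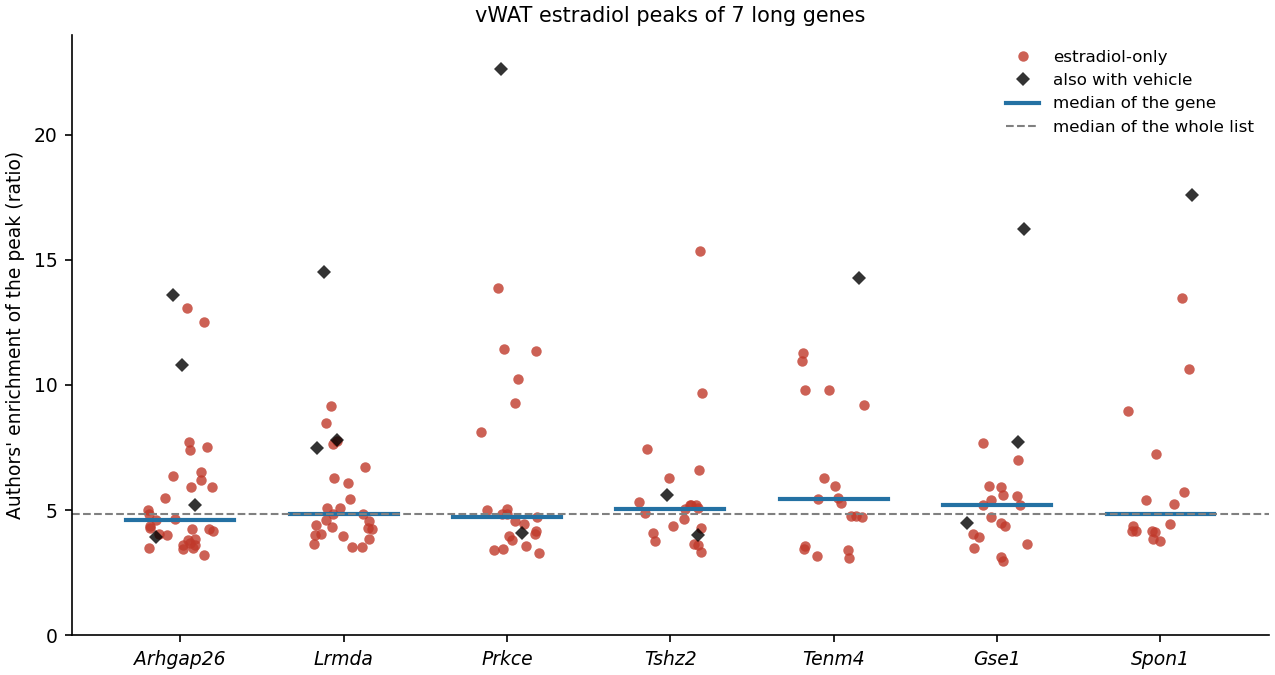
Authors' enrichment ratio of each vWAT estradiol peak at the 7 genes. Red circles are estradiol-only peaks, black diamonds peaks also held with vehicle, blue bars the median of a gene and the dashed line the median of the whole list (4.84); the diamonds reach 22.6 at Prkce, and Tshz2 alone has a red circle as its highest point, at 15.4.

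Arhgap26 (chr18:38601617-39376285) encodes a GTPase-activating protein that also takes part in endocytosis. Its 35 vWAT estradiol peaks were spread along the gene, with 8, 7, 8, 5 and 6 summits in 5 successive stretches of equal length and 1 in a flank. The strongest, at chr18:38690327-38691126, had an enrichment of 13.6 and was also held with vehicle (5.06) and in scWAT, where it was the strongest peak of the gene (11.9). The strongest estradiol-only peaks, at chr18:38767967-38768712 (13.1) and chr18:38907297-38907922 (number 1014 of the list by enrichment), were both found in scWAT and in neither BAT nor Liver. The second of these lies inside Fgf1, a fibroblast growth factor gene whose span falls within that of Arhgap26 and holds 5 of the peaks, all estradiol-only. Without the 6 summits inside Fgf1 or the overlapping predicted gene Gm5820, 29 peaks were left, 25 of them estradiol-only. Of the 5 vehicle peaks (5.73, 5.06, 4.32, 3.77 and 3.28), 4 overlapped an estradiol peak. The strongest BAT peak (4.93) coincided with a vWAT estradiol peak, and the strongest Liver peak (6.75) stood 280 kb from the lower end with none. The longest stretch without a vWAT estradiol summit was 96.4 kb.

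Lrmda (chr14:22019504-23056093), at 1037 kb the longest of the 7, encodes a leucine-rich repeat protein of melanocyte differentiation whose human counterpart is mutated in a form of albinism. It had 28 vWAT estradiol peaks, 4 vehicle, 9 scWAT, 2 BAT and 4 Liver peaks. Of the 26 summits inside the span, 9 lay in the first of 5 stretches of equal length and 7 in the next to last, and the longest empty stretch, 148 kb, ran from 590 to 738 kb. The strongest peak, at chr14:22151341-22151940 (14.5), was also held with vehicle (8.09), in scWAT (12.1) and in BAT. The strongest estradiol-only peak, at chr14:22006261-22006793 (9.17), lay 13.0 kb before the span and was found in scWAT. The other vehicle peaks had enrichments of 5.21, 3.82 and 3.23, and the last of them overlapped no estradiol peak although an estradiol-only summit lay 496 bp away. The strongest Liver peak at Lrmda, 3.33, was stronger than 23.1% of that list, and the BAT maximum was 4.51.

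Prkce (chr17:86167785-86657919) encodes protein kinase C epsilon, a kinase activated by diacylglycerol without calcium. Its strongest peak was the strongest of the 7 genes and number 8 of the whole vWAT estradiol list, at chr17:86150774-86151397 with an enrichment of 22.6. It lay 16.7 kb outside the span of Prkce, between it and Srbd1, and was held in all 5 lists, with 23.0 for vehicle and 12.9 in Liver. The other 22 peaks lay inside the span, 14 of them in its lower-coordinate part up to the midpoint, and 102.8 kb between 300 and 403 kb were empty. The strongest estradiol-only peak, at chr17:86263783-86264354 (13.9), coincided with the strongest scWAT peak (11.1) and was in no other list. The next estradiol-only peaks, of 11.4 and 11.3, were also found in scWAT, and 10 of the 21 estradiol-only peaks were. The other 2 vehicle peaks had enrichments of 6.11 and 3.82, and the first of them overlapped no estradiol peak. Prkce had 9 Liver peaks, of which 2 coincided with vWAT estradiol peaks, and the strongest of its 4 BAT peaks (6.99) stood at an estradiol-only site.

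Tshz2 (chr2:169632509-170072751) encodes a zinc finger transcription factor of the teashirt family. It held the largest group of closely spaced summits in the 7 genes, 8 summits over 56.3 kb, of which 7 were estradiol-only. From lower to higher coordinate these 8 peaks had enrichments of 3.64, 9.67, 15.4, 4.02, 7.46, 4.27, 5.19 and 5.21, and 3 were found in scWAT. The strongest, at chr2:169919842-169920618, was estradiol-only and coincided with the strongest scWAT peak (10.7). The neighbour at chr2:169907927-169908465 (9.67) was in no other list. Of the 20 estradiol-only peaks of Tshz2, 3 were found in scWAT, 0 in BAT and 1 in Liver. Tshz2 also had the most vehicle peaks of the 7 genes, 6, with enrichments of 7.06, 5.03, 4.30, 4.09, 4.08 and 3.45, of which 2 overlapped an estradiol peak. Its single BAT peak (4.83) was the one just past the start site, and the strongest of its 7 Liver peaks had 4.32. Before the 8 grouped summits, 85.5 kb of the gene were empty.

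Tenm4 (chr7:96171244-96911093) encodes a teneurin, a large transmembrane protein that binds latrophilin receptors on other cells. Of its 19 summits, 6 lay around the start site over 34.5 kb, from 23.7 kb before the span to 10.8 kb inside it. In that order their enrichments were 3.44, 3.08, 5.27, 11.3, 3.42 and 14.3, so the strong peaks flanked the weak one just past the start site. The strongest, at chr7:96181496-96182351, was the only Tenm4 peak held with vehicle (4.91) and was also the strongest in scWAT (10.97) and BAT (5.04). The peak of 11.3, at chr7:96163947-96164525, was the strongest estradiol-only peak and was found in scWAT. Inside the span, 5 successive stretches of equal length held 5, 2, 1, 6 and 1 summits. A stretch of 133.2 kb, from 121 to 254 kb, was empty, and a second group of 3 summits lay at 571 to 590 kb. Tenm4 had the highest median enrichment and 8 of its 18 estradiol-only peaks were found in scWAT. The other vehicle peaks (4.45 and 3.79) overlapped no estradiol peak, and the stronger of the 2 Liver peaks (4.73) did not either.

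Gse1 (chr8:120228501-120581383) encodes a coiled-coil protein found in histone deacetylase complexes with the demethylase LSD1. It had the highest density of vWAT estradiol, scWAT and Liver peaks of the 7 genes, with 21, 15 and 14 peaks. The strongest peak, at chr8:120243108-120243784 (16.3), was held in all 5 lists and was the strongest Gse1 peak in scWAT (13.4), BAT (5.41) and vehicle (7.26). A second peak in all 5 lists, at chr8:120588957-120589437 (7.73), lay 7.82 kb past the higher end, where it overlaps the end of the neighbouring gene Gins2, and was the strongest Gse1 peak in Liver (5.11). The estradiol-only peaks were weaker than at the other 6 genes at their upper end. The strongest, at chr8:120277043-120277823, had 7.70. Of the 18 estradiol-only peaks of Gse1, 10 were found in scWAT. The share was 35.3% at other long genes and 38.7% in the whole list, and with 18 peaks nothing is read from the difference. Vehicle had a peak of 6.03 at that second site. Of the remaining vehicle peaks, one of 5.002 overlapped no vWAT estradiol peak but was found in BAT and Liver, and one of 3.54 overlapped an estradiol peak. The longest empty stretch was 43.8 kb.

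Spon1 (chr7:113765998-114043375) encodes F-spondin, a secreted protein of the extracellular matrix. It is the shortest of the 7 at 277 kb and had the highest density of estradiol-only peaks, with all 16 vWAT estradiol summits inside the span. One peak stood apart, at chr7:113961987-113962621, with 17.6 in vWAT with estradiol and in all 5 lists. It was also the strongest Spon1 peak with vehicle (8.26), in scWAT (16.7), in BAT (9.31) and in Liver (7.76). The other 15 peaks were estradiol-only, and the strongest, at chr7:113792084-113792748 (13.5), and the next (10.6) were found in scWAT. In total 7 of the 15 were found in scWAT, 1 in BAT and 0 in Liver. Summits were evenly spread, with 3, 3, 4, 2 and 4 in 5 successive stretches of equal length and no gap above 44.3 kb. The second vehicle peak (4.68) lay 6.48 kb outside the span and overlapped no estradiol peak.

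The spacing below uses the estradiol-only peaks on which the 7 genes were selected, so nothing is read from differences in it. The 40 comparison genes were also picked for many such peaks. Of 141 gaps between neighbouring estradiol-only summits in a gene, 53 were at most 12500 bp (37.6%, interval 30.0 to 45.8). At the 40 other genes of at least 200 kb with 10 or more estradiol-only peaks the share was 36.3% of 444 gaps. At all other genes of at least 200 kb, these 40 included, it was 25.01% of 1775. Genes that overlap each other count the same gaps more than once there. The median gap was 16.4 kb in the 7 genes, 20.4 kb in the 40 genes and 32.3 kb in all other genes of at least 200 kb. The gene with the widest median gap was Lrmda (32.7 kb) and that with the narrowest was Spon1 (14.1 kb). When every list was held to 5193 peaks the share within 12500 bp was 7.69% of 26 gaps. No value for other genes stands beside that share.

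**Figure D5:**
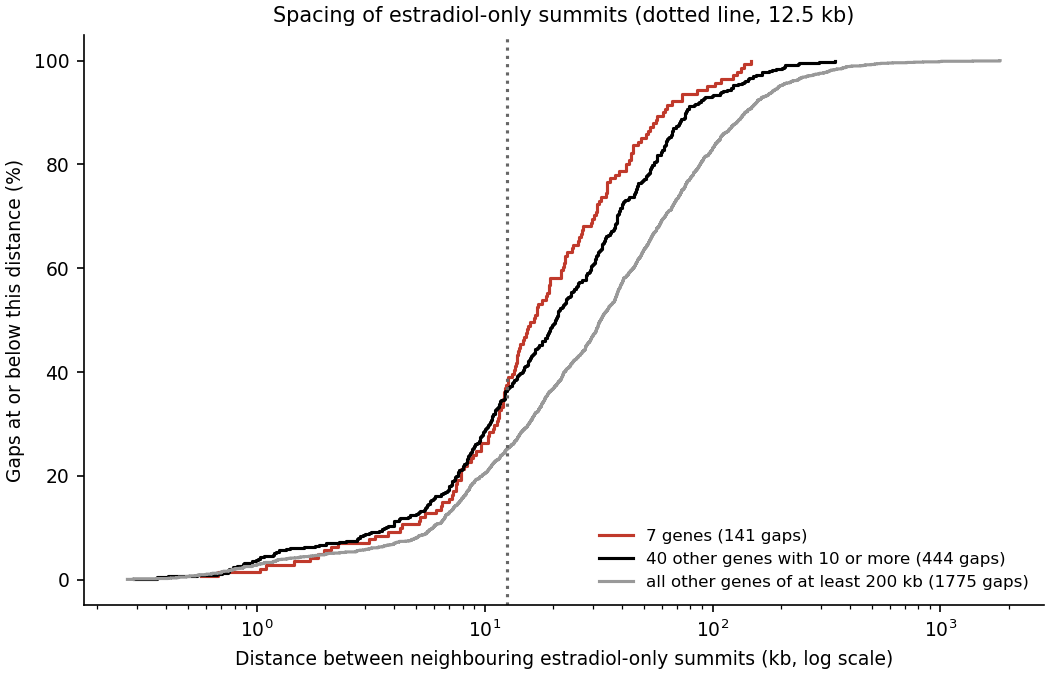
Cumulative share in percent of gaps between neighbouring vWAT estradiol-only summits (vertical) by gap length in kb on a log axis (horizontal), for the 7 genes (141 gaps), the 40 other long genes with 10 or more such peaks (444) and all other genes of at least 200 kb (1775). At the dotted line, 12500 bp, the red and black curves are at 37.6% and 36.3% and the grey curve at 25.01%. The grey curve includes the gaps of the 40 genes, and overlapping genes repeat some gaps in it.

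Chaining summits no more than 12500 bp apart gave 16 groups of 3 or more, holding 56 of the 164 vWAT estradiol summits, in all 7 genes. Of these, 14 had 3 summits each and spanned 8.11 to 23.2 kb, and the others were the groups of 8 at Tshz2 and 6 at Tenm4. Arhgap26 had 4 groups, Prkce 3, Tshz2, Tenm4, Gse1 and Spon1 2 each and Lrmda 1. Most summits therefore stood alone or in pairs. Most summits did not depend on the boundary of 25 kb, since 155 lay inside the spans, 9 within 25 kb and 10 between 25 and 50 kb. Tenm4 had 4 of those within 25 kb, and Gse1 had 4 of those between 25 and 50 kb. As given above, some calls of denser genes changed with the flank, at Tshz2, Lrmda and Prkce. The farthest summits inside the boundary were at Tenm4, 23.7 and 21.4 kb out (3.44 and 3.08). The nearest beyond it were at Gse1 (27.3 kb, 4.97) and Spon1 (27.8 kb, 4.90), and a vehicle-held peak of 13.7 lay 28.8 kb from Lrmda.

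Relatives of the 7 genes held fewer estradiol-only peaks by count. The 7 were selected on such peaks, so nothing is read from lower counts at relatives or at other long genes. Among other GTPase activators of the GRAF type, Arhgap10 had 5 and Arhgap42 had 6, against 31 at Arhgap26. Of the 8 other protein kinase C genes 7 had estradiol-only peaks and none more than the 6 at Prkca, against 21 at Prkce. Among the other teneurins Tenm1 and Tenm3 had 0 in spans of 901 and 1297 kb and Tenm2 had 2, against 18 at Tenm4, and 2 of the 3 latrophilins had 1 to 3. Tshz1 had 2 and Tshz3 0. Of the 5 other spondin-type genes 3 had estradiol-only peaks, and Spon2 had 4 at a span of 4.74 kb. Per 100 kb of span plus flanks Spon2 was denser, at 7.31 against 4.58 at Spon1. Of 6 other pigmentation genes 3 had 1 each, and of 10 genes for CoREST and LSD1 partners of Gse1 5 had 1 to 3. Most of these relatives are much shorter, so the counts are not on one scale of length. Among 16 long genes known for neuronal roles, of 852 to 2241 kb, 9 had estradiol-only peaks, with a median of 1 and at most 5, at Dlg2.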

How the data were processed

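The 5 deposited ERα ChIP-seq peak lists were used, 1 per group of libraries. RNA-seq and H3K27ac ChIP-seq were not used here. The submitters' processing notes name the build mm10 and the tools BWA (0.7.12) and HOMER without their roles. The program that called the peaks, its threshold and any pooling of libraries are not named in the labels or files used. The deposited values for a peak are an enrichment ratio (fold over a background not stated), the −log10 p-value and, from the authors too, the −log10 q-value. Depth is unknown.

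Peaks on chromosomes 1 to 19 and X were used. Gene spans were those of RefSeq on GRCm38.p6, the assembly of mm10. Overlap of at least 1 bp counted as shared. Density is the number of summits divided by the span plus 25 kb on either side. Wilson intervals cover counting error over peaks, not the spread between animals. With 1 list per group no test between conditions was possible. Named were, by rule, the 7 genes, for each the strongest vWAT estradiol and estradiol-only peaks, every vehicle peak, the strongest scWAT, BAT and Liver peaks and the gene nearest in span, and the 3 other long genes with the highest density. Further estradiol-only peaks, genes lying within a member's window, the Tshz2 and Tenm4 groups, Slit3 and Adam12 were added once their values had been seen. The genes and lists were chosen with earlier results of these data known. A single gene of these lists is not reported here. Overlap counting was tested on simulated data. Alternatives comprised a stricter q-value limit, lists of equal length (cut by p-value), other flanks, overlaps, span ranges and gap lengths. Software was matplotlib 3.10.9, scipy 1.17.1, pandas 2.3.3 and numpy 2.4.6 under Python 3.11.15.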

Additional observations from a re-analysis of the deposited data

How the results depend on the processing

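All 7 genes stayed denser in vWAT estradiol peaks than 95% of genes of like span under the q-value limit, equal length, both other flanks and wider spans. In estradiol-only peaks the count was 6 with equal length (without Gse1) and 7 under these other alternatives and both other overlap rules. In all, 57 alternative values were labelled as little changed and 13 as moved, although in the counts of denser genes the genes themselves could change. Little changed included the scWAT share going from 40.9% to 34.1% with summits within 100 bp. It also included the BAT share going from 9.15% to 6.10% when at least 50% of the vWAT peak had to overlap. The moved values included those for other gap lengths. With every list held to 5193 peaks, 33 estradiol-only peaks were left, 78.6% of vWAT estradiol peaks were absent from vehicle (whole list 56.3%), and 64.3% and 21.4% were found in scWAT and BAT (whole list 66.2% and 31.1%). The share of neighbouring estradiol-only summits within 12500 bp was then 7.69%, and without this restriction it was 10.6% within 5 kb and 64.5% within 25 kb. Dropping peaks below 2 in −log10 q-value gave shares found in BAT and Liver of 4.83% and 5.52% (whole list 6.87% and 19.9%). The Liver share was 4.88% when at least 50% of the vWAT peak had to overlap and 3.66% with summits within 100 bp (whole list 17.8% and 13.2%). The alternatives for estradiol-only peaks and for each list alone were added after seeing the data. Among them the count of denser genes moved to 1 in BAT with the q-value limit and to 1 in Liver with spans of 0.5 to 2 times. The causes were not tested. A stricter limit or an equal length also leaves a smaller number of peaks. Lists from different numbers of libraries may differ in depth, and no value per library was at hand.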

Other observations

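The 3 genes of at least 200 kb with the highest density of estradiol-only peaks outside the 7 were Trabd2b, Adamts2 and Zmiz1, all shorter than Spon1. Trabd2b (chr4:114406682-114615098), which encodes a membrane metalloprotease acting on Wnt proteins, had 19 estradiol-only peaks in 208 kb, or 7.35 per 100 kb, and 9 of them were found in scWAT and 0 in Liver. Its strongest estradiol-only peak, at chr4:114558348-114558995, had an enrichment of 16.3. Adamts2 (chr11:50602085-50807573), which encodes a protease that trims procollagen, had 14 at 5.48 per 100 kb, with 9 found in scWAT. Zmiz1 (chr14:25457875-25666743), a transcriptional coregulator of the PIAS-like family, had 14 at 5.41 per 100 kb, with 8 found in scWAT, and its strongest, at chr14:25472849-25473560, had 16.5. Adam12 had 18 vWAT estradiol peaks, all estradiol-only, and 0 vehicle peaks in 342 kb, whereas each of the 7 genes had 2 to 6 vehicle peaks.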
